A study of Mus musculus with 2 samples.

Results

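The genes described here build, measure and cap the thin filament of the muscle sarcomere: the actins Acta1 and Actc1, the nucleators Lmod2 and Lmod3, the pointed-end caps Tmod1 and Tmod3, the ruler protein gene Neb, and the tropomyosins Tpm1, Tpm2 and Tpm3. These 10 genes were chosen by name, with earlier results of these data known, and followed through the probe sets annotated to 1 gene only. All 10 were found among 19938 named genes. The data come from the mouse myoblast line C2C12, whose cells fuse and become myotubes when serum is withdrawn. Cultures were grown in 10% fetal bovine serum and kept for 7 days in 2% horse serum. Adenovirus was then added for 48 h (multiplicity of infection 30), and it carried either an always-active form of estrogen receptor α (Ad-caERα) or the red fluorescent protein DsRed as the control (Ad-DsRed). Each vector was profiled on 1 Affymetrix array, so both groups share the infection and the differentiation, and no difference below has a replicate check or a test. Neither the receptor fragment nor the promoter of the vector is named in the labels. The question is which thin filament transcripts differed between the array with the active receptor and the control array.

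Thin filaments are polymers of actin wound with tropomyosin and troponin. Leiomodins start new filaments, tropomodulins cap the slow-growing pointed end and so limit length, and nebulin runs along the filament and stabilizes it. Developing muscle and cultured myotubes carry much cardiac α-actin, which skeletal α-actin largely replaces in adult skeletal muscle.

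The Esr1 probe set, for the receptor's own gene, was brighter on the array labelled Ad-caERα (8.44 on the log2 scale) than in the control (7.38); how far it reads the vector's transcript was not tested. All 10 fixed myotube markers passed the detection floor on both arrays. The floor was a log2 signal of 5.11, the 95th percentile over 1210 olfactory and vomeronasal receptor probe sets, whose genes are not thought to be active in muscle cells. A gene was called measured when its higher value passed the floor, which 13554 genes did, among them all 10 thin filament genes on both arrays.

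Start-site sequence was at hand for 7 of the 10 genes and not for Lmod3, Neb or Tmod3. It came in 8 windows of 300 bases from RefSeq (GRCm38.p6), each with 250 bases before and 50 after an annotated start. Those of both actins are shown because the actins differed from each other in the comparison, and that of Tmod1 because it had the largest difference of the 10. Capitals mark the CArG box (bound by serum response factor), the MCAT element CATTCC (bound by TEAD factors) and the TATA box TATAAA, each searched on both strands; no matches overlapped. The windows are chr8:123894726-123895025 on the minus strand for Acta1, chr2:114052826-114053125 on the minus strand for Actc1 and chr4:46038972-46039271 on the plus strand for Tmod1.
Acta1: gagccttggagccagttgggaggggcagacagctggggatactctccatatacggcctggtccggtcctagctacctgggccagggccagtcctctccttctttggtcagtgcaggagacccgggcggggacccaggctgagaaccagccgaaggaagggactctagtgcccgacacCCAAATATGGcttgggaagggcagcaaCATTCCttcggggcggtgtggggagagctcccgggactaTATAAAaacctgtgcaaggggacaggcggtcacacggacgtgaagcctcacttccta
Actc1: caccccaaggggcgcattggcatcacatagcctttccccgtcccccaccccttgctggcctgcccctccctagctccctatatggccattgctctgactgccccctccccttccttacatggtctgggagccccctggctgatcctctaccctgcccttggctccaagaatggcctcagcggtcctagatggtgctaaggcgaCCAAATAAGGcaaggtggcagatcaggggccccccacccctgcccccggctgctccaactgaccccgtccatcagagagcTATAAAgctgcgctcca
Tmod1: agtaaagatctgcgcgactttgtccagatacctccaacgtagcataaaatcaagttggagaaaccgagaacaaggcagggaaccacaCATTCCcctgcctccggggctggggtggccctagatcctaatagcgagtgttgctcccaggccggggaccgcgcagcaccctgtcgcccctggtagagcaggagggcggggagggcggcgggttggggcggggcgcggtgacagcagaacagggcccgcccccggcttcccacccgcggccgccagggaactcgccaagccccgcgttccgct

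Both actin windows held a CArG box, at bases 178 to 187 in Acta1 and 204 to 213 in Actc1, a match present in 1.63% of all 32851 windows. These were the 2 windows with a CArG box among the 8. Both also held a TATA box, found in 13.6% of all windows; that of Actc1 lies at bases 284 to 289, after the annotated start. MCAT was in the Acta1, Tmod1 and Tpm1 windows and in 14.7% of all windows. No window of the 8 held a MEF2 site (3.19% of all windows) or the estrogen response element GGTCANNNTGACC (23 of the 32851 windows). The shorter element GGTCA was in 6 of the 8 and in 40.5% of all windows, with none in Tmod1 or Tpm1. These matches describe letters in a short window and not binding.

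Of the 10 thin filament genes, 1 was at least 2-fold apart between the arrays, Tmod1, which was higher in Ad-caERα. Over all measured genes 0.59% were higher by that rule and 0.0959% lower. By a smaller rule of 1.5-fold, 1 member was higher (Tmod1) and 2 were lower (Lmod3 and Actc1), against 1.82% and 0.885% of measured genes. Because the list was chosen with earlier results of these data known, these shares and the ranks below cannot show an excess among the members. The other 7 differed by less than 0.15 on the log2 scale, a band that held 53.4% of measured genes. The median difference over the 10 was -0.078, with 7 below 0, 2 above and 1 at 0, while the median over all measured genes was 0.0017 with 48.8% below 0. Where a pair of signals is given below, the control array comes first. As a yardstick, the difference had an SD of 0.13 among probe sets that report 1 gene, over 770 genes. Its SD was 0.222 over the 1210 receptor probe sets that set the floor and 0.119 over 55 ribosomal protein genes. None of these SDs measures the spread between cultures.

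**Figure D1:**
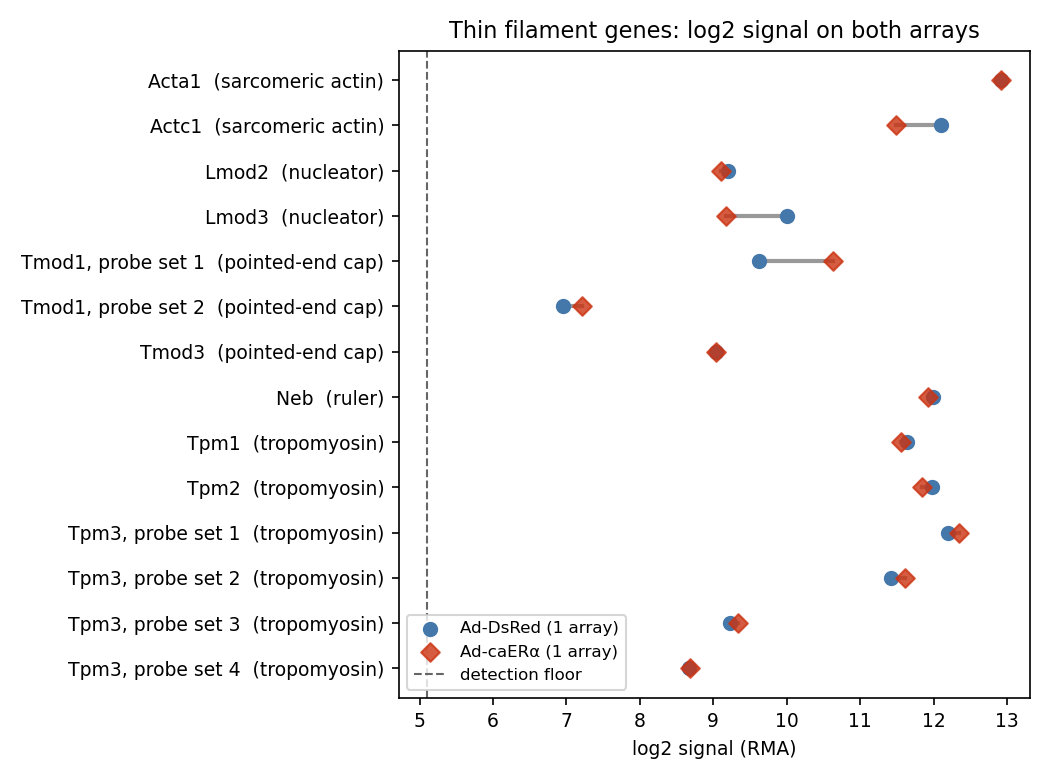
Log2 RMA signal (horizontal axis) of every single-gene probe set of the 10 genes, with circles for the Ad-DsRed array, diamonds for the Ad-caERα array and the dashed line at the detection floor of 5.11. Lmod3 and Actc1 lie to the left in Ad-caERα and the brighter Tmod1 probe set lies to the right, from 9.62 to 10.63; the dimmer Tmod1 probe set lies slightly to the right, from 6.95 to 7.22, and the remaining pairs lie less than 0.2 apart.

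The sarcomeric actins did not differ alike. Acta1, skeletal α-actin and the main actin of adult skeletal muscle, had a log2 signal of 12.92 in Ad-DsRed and 12.91 in Ad-caERα, a difference of -0.0049. Actc1, cardiac α-actin, was at 12.10 with DsRed and 11.49 with the receptor, a difference of -0.62 or 1.53-fold lower. The Actc1 value was thus lower with the active receptor while Acta1 was level. The Actc1 difference was the 90th lowest of the 13554, and the lowest of the 380 measured genes whose mean signal lay within 0.5 of its own. The difference of Actc1 minus that of Acta1 was -0.61, a quantity that a constant shift of either array cannot change. Both genes encode nearly identical proteins, and how far either probe set reads the other transcript was not tested.

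Among the leiomodins, Lmod3 was lower and Lmod2 was nearly level. Lmod3, a nucleator of skeletal muscle filaments whose loss causes nemaline myopathy, was at 10.00 with DsRed and 9.17 with the receptor. That is a difference of -0.82, or 1.77-fold lower, the lowest of the 10 genes and the 33rd lowest of all measured genes. Of 2280 genes of like signal, 2 including Lmod3 lay that low. Lmod2, the leiomodin best known from heart, was at 9.19 and 9.11, a difference of -0.084. The difference of Lmod3 minus that of Lmod2 was -0.74.

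The tropomodulin caps parted in the other direction. Tmod1, the cap of striated muscle and red cells, was at 9.62 with DsRed and 10.63 with the receptor on its brighter probe set, a difference of 1.01 or 2.01-fold higher. It was the 78th highest of the 13554 differences, and 6 of 1740 genes of like signal including Tmod1 lay that high. Its second probe set, annotated to 1 transcript sequence against 5 for the first, was dimmer, at 6.95 and 7.22, with a difference of 0.26. Both probe sets were higher in Ad-caERα, but their differences lay 0.74 apart, a gap that 7 of the 770 genes with several measured probe sets reached, Tmod1 included. The mean of both gave 0.64, under the 2-fold rule. On the brighter probe set the value sits just past that rule and fell short of it after centring (0.97), quantile normalization (0.98) and loess (0.99). Tmod3, the widely expressed cap, was at 9.04 on both arrays with a difference of 0, and 855 of 35556 probe sets, Tmod3 included, were tied in this way.

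**Figure D2:**
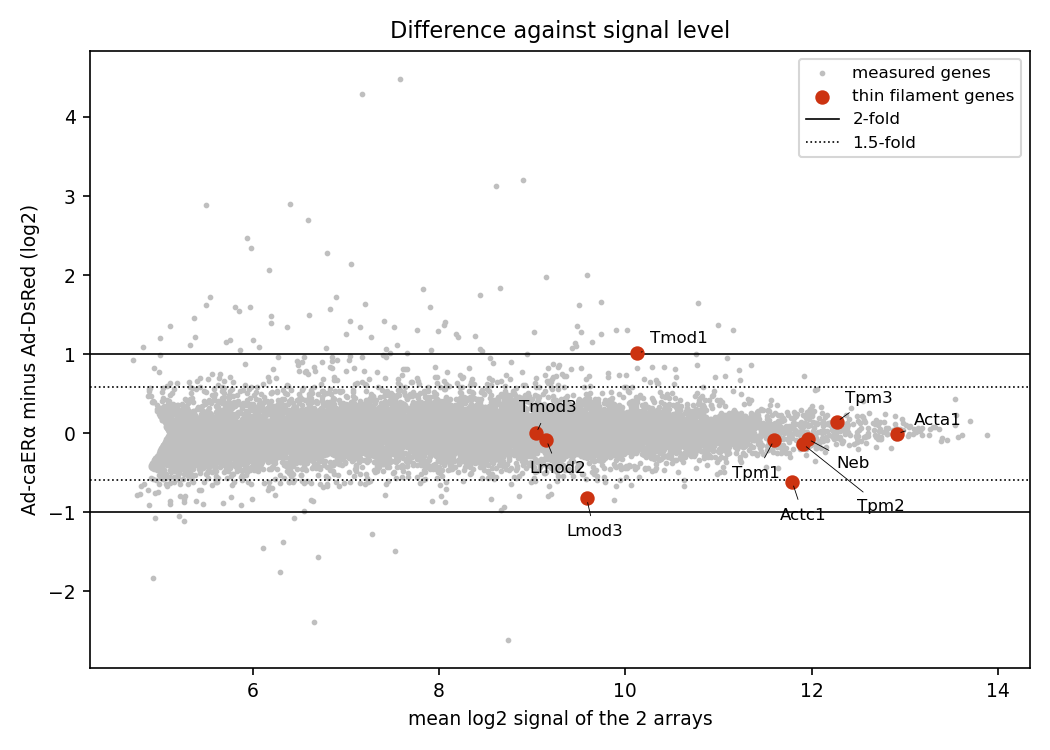
Difference of Ad-caERα minus Ad-DsRed (log2, vertical axis) against the mean log2 signal of both arrays for 13554 measured genes in grey and the 10 thin filament genes in red, with solid lines at 2-fold and dotted lines at 1.5-fold. Tmod1 (1.01) sits at the upper solid line, Lmod3 (-0.82) and Actc1 (-0.62) lie below the lower dotted line, and the other 7 lie near 0.

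Neb and the tropomyosins differed little. Neb, the giant protein that spans the filament, was at 11.99 with DsRed and 11.92 with the receptor, a difference of -0.072. Tpm1, α-tropomyosin, was at 11.64 and 11.55, a difference of -0.088. Tpm2, β-tropomyosin, was at 11.98 and 11.84, a difference of -0.14. These 3 genes lay slightly lower with the active receptor, by about the spread between probe sets of a gene or less. Tpm3, the tropomyosin of slow fibres that also makes short non-muscle forms, was slightly higher, at 12.20 with DsRed and 12.34 with the receptor. Its difference was 0.145, and its 3 other probe sets gave 0.19, 0.10 and 0.011. Thus all 4 Tpm3 probe sets lay above 0 on the deposited values. Centring the arrays on their medians shifts every difference by -0.037, a larger amount than the lowest of them, 0.011. Their spread of 0.175 was not rare among the 770 genes, since 198 had one as wide. The difference of Tpm3 minus that of Tpm2 was 0.28, and of Tpm1 minus Tpm2 0.049. Each tropomyosin gene makes many splice forms, which these probe sets do not separate.

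**Figure D3:**
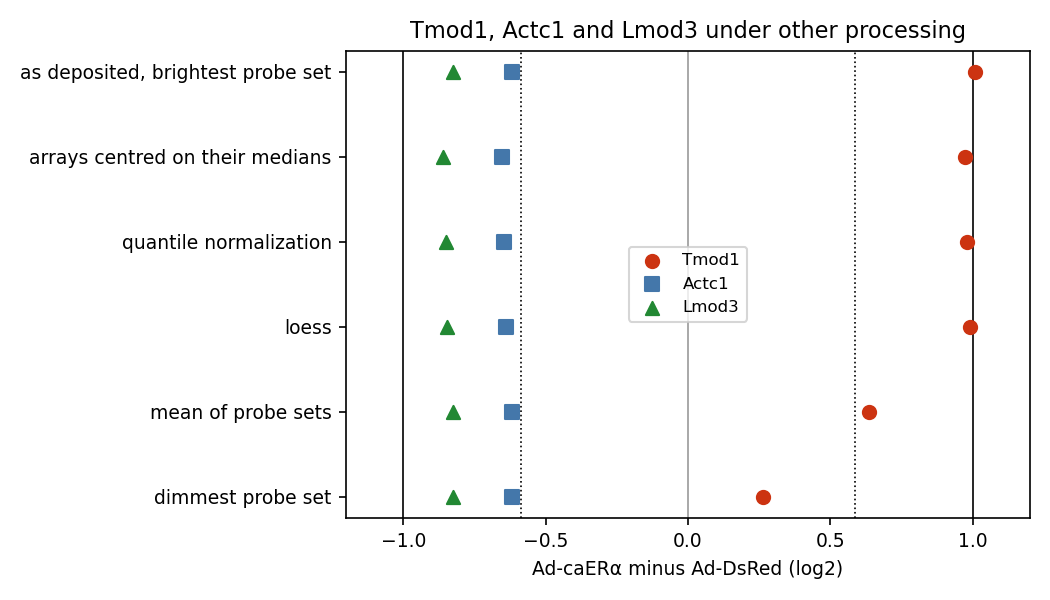
Difference of Ad-caERα minus Ad-DsRed (log2, horizontal axis) of Tmod1 (circles), Actc1 (squares) and Lmod3 (triangles) on the deposited values and under 5 other ways of processing, with solid lines at 2-fold and dotted lines at 1.5-fold. Actc1 and Lmod3 stay beyond 1.5-fold under centring, quantile normalization and loess. Each has 1 probe set, so the mean and the dimmest probe set could not move them. Tmod1, which has 2, runs from 1.01 on its brighter probe set to 0.26 on its dimmer one.

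Other genes of the thin filament, with related genes such as myosins and transcription factors, were set beside the members in 7 lists. Leaving out the members, 57 of 59 listed genes were measured, 35 of them below 0, with a median difference of -0.049. None of the 57 passed 2-fold, where 0.59% of all measured genes were higher and 0.0959% lower. By 1.5-fold 1 was higher, Pfn2, and none was lower, beside 1.82% and 0.885% of measured genes. The 4 measured other actins and tropomyosin had a median of -0.042. Acta2, smooth muscle α-actin (-0.031), Actb, the cytoplasmic β-actin (-0.052), and Tpm4 (-0.099) were nearly level. Actg2, smooth muscle γ-actin, was at 7.98 with DsRed and 8.49 with the receptor, a difference of 0.51. Actg1 shared its 4 probe sets with Actb, and these ran from -0.052 to 0.0087.

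Other caps, nebulin relatives and nucleators were lower in 11 of 16 cases, with a median of -0.18. The lowest was Fhod3, a formin needed for sarcomere organization, at 7.06 and 6.51 (a difference of -0.55). Daam1, another formin, was at 10.64 and 10.18 (-0.46). Nebl, a small nebulin relative, was at 5.40 in the control and under the floor with the receptor, at least 1.22-fold lower, so its place among the lowest is not known. Lmod1, the smooth muscle leiomodin (0.25), and the formin Fhod1 (0.12) were highest. The remaining tropomodulins did not go the way of Tmod1: Tmod2 was weak, at 5.29 and 5.14 (-0.15), and Tmod4, a skeletal muscle cap, was at 5.95 and 5.74 (-0.22).

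Actin turnover genes lay above 0 in 10 of 14 cases, with a median of 0.042. Pfn2, a profilin that supplies actin monomers, was at 8.07 and 8.69, a difference of 0.62, and Twf2, a twinfilin, had a difference of 0.52. Cap2, an actin-cycling protein of striated muscle (-0.45), and Cfl2, muscle cofilin (-0.063), were lowest.

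Genes of the kelch and nemaline myopathy list were all below 0 where measured, 4 of 4, with a median of -0.18. Klhl40, which stabilizes nebulin and leiomodin 3, was at 7.12 and 6.97 (-0.16), and its relative Klhl41 was at 11.12 and 10.96 (-0.16). Mypn, myopalladin (-0.21), and Myo18b, a myosin of sarcomere assembly (-0.28), were the lowest of the list.

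The 8 troponin genes, 5 of them below 0, had a median of -0.061, from Tnnc2, fast troponin C (-0.32), and Tnnt1, slow troponin T (-0.17), to Tnni3, cardiac troponin I (0.26), and Tnni1, slow troponin I (0.27). Among 8 transcription factor genes known to act on actin promoters, 6 were below 0 and the median was -0.12. Srf, serum response factor, was at 9.50 and 9.57, a difference of 0.067, and Mef2a had a difference of 0.23. Mef2c (-0.39) and Tead4 (-0.35) were lowest. Developmental isoforms had a median of -0.034 over 7 genes. Actc1 was the lowest of them, followed by the embryonic myosin Myh3 (-0.25), while Tnni1 and the embryonic light chain Myl4 (0.18) were highest. None of the other 6 isoforms was 1.5-fold apart.

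**Figure D4:**
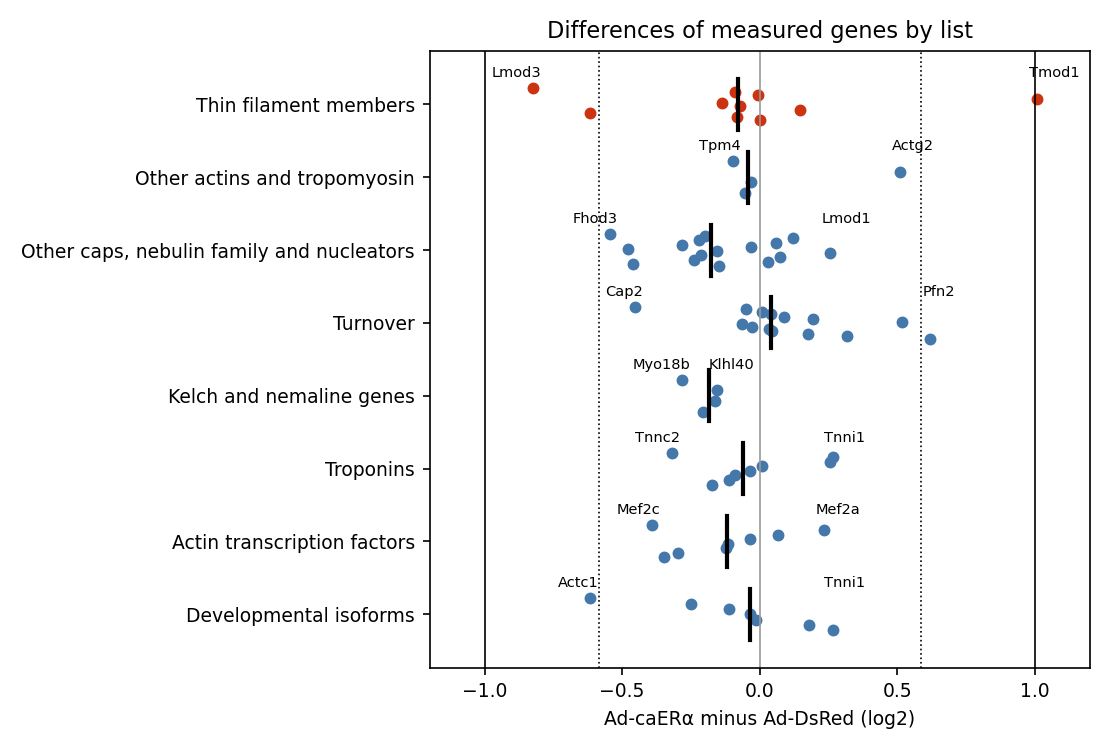
Difference of Ad-caERα minus Ad-DsRed (log2, horizontal axis) of each measured gene, with the 10 thin filament genes in red and 7 lists of related genes in blue, black bars for medians, and lines at 2-fold (solid) and 1.5-fold (dotted). The lowest and the highest gene of each list are named; Tmod1 and Lmod3 lie farther out than any gene of the other lists.

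Markers of myotubes lay slightly lower as well. Of 10 myotube markers 9 were lower in Ad-caERα, with a median of -0.17. The lowest was Casq1, the calcium store protein (-0.61), Ttn, titin, was at -0.42, and Des, desmin, was higher by 0.22. The log2 of their summed signal was 14.27 in Ad-DsRed and 14.21 in Ad-caERα. In such bulk RNA, fewer myotubes and less RNA per myotube cannot be told apart. Of 9 measured smooth muscle and fibroblast markers, 5 were lower, the median was -0.031, and Tagln was at 0.59. Thy1, the remaining marker, was below the floor on both arrays. With Thy1 included, the log2 of the summed signal of the 10 was 13.41 and 13.42, set mostly by Acta2 at 13.06 and 13.025. Of 7 measured cardiac markers 5 were higher, with a median of 0.076. Gata4 was highest, at 8.82 and 9.49 (0.66), and Mybpc3 was under the floor with the receptor, at least 1.08-fold lower. Myl7, a defining gene of atrial muscle, was below the floor on both arrays. The log2 of the summed signal of all 8 cardiac markers, Myl7 included, was 10.07 and 10.45, and most of that rise lay in Gata4. Of 5 myoblast markers 4 were lower, with a median of -0.15 and Myf5 higher by 0.71. The log2 of the summed signal of the 5 was 13.01 and 12.86. The 4 were Cdh15 (-0.27), Pax7 (-0.14) and the cell division genes Mki67 (-0.44) and Cdk1 (-0.15), which are not particular to myoblasts. The part of these markers in the thin filament values was not tested.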

How the data were processed

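Total RNA (150 ng per sample, per the labels' protocols) was labelled and hybridized to 1 array per vector. The authors deposited a log2 signal for each probe set, made with Affymetrix Expression Console and RMA per the submitters' processing notes. RMA corrects background, quantile-normalizes and summarizes probes, which compresses weak differences and hides a change in total mRNA. Versions are not given in the sources at hand, and that the scale is log2 was read from the values, which run from 1.85 to 14.16. Of 35556 probe sets, 21789 were annotated to 1 gene, 1621 to several and 12146 to none. RefSeq's table held the gene identifier of 21698 of the first kind. For a gene with several probe sets the one with the highest mean was used. Depth has no counterpart here, and the number of arrays limits precision.

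The difference is Ad-caERα minus Ad-DsRed. With 1 array per group, genes were described by rules of size (2-fold and 1.5-fold) and no test was made. The members and lists were chosen with earlier results of these data known. Named were all members, and in each list the genes past 1.5-fold, the 2 highest and the 2 lowest, plus Esr1, Srf, Klhl40, Klhl41, Actb and Actg1; Tmod2, Tmod4, Daam1 and the marker genes were added after their values were seen. Alternatives covered the floor, normalization (loess span 0.4), probe set rule and threshold. Counting and loess code was tested on simulated data. Python 3.11.15, numpy 2.4.6, pandas 2.3.3, statsmodels 0.14.6 and matplotlib 3.10.9 were used.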

Additional observations from a re-analysis of the deposited data

How the results depend on the processing

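No paired analysis was possible because the vectors were profiled on 1 array apiece, and no replicate could be left out. The spread between cultures is therefore unknown. The count of 1 member higher by 2-fold became 0 after centring the arrays on their medians, loess, quantile normalization, averaging of probe sets, the dimmest probe set (chosen after seeing the data) and a 3-fold threshold. The count of 1 higher by 1.5-fold became 0 with the dimmest probe set, an alternative also chosen after seeing the data. The count of 0 lower by 2-fold became 2 at the 1.5-fold threshold. Lmod3 and Actc1 remained the 2 genes lower by 1.5-fold under centring, quantile normalization and loess, at -0.86, -0.85 and -0.85 for Lmod3 and -0.65, -0.65 and -0.64 for Actc1. Both have a single probe set and lie far above every floor, so the other alternatives could not move them. The median over the 10 genes ran from -0.11 to -0.067 over 19 alternatives, which include leaving out each gene in turn. Of 60 recalculated single-gene differences 57 moved by less than the SD of 0.13 between probe sets of a gene. The others were Tmod1 at 0.64 and 0.26 and Tpm3 at 0.011, all from the choice of probe set. Many of the 57 could not have moved far. Members with a single probe set keep their value under the probe set alternatives, and raising values to the floor changed no member. Centring shifts every gene by the same amount, which took Tmod3 from 0 to -0.037. All 21 recalculated list medians moved by less than that SD, though centring shifts each of them by that same amount. Dropping the floor could change only the kelch and nemaline list, which alone held an unmeasured gene.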
